A study of Gallus gallus with 28 samples.

Results

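The brush border peptidases described here are 5 genes, DPP4, ANPEP, ENPEP, MME and CPM, chosen by name and followed through every probe set that the probe annotation gives to one of them. They had 10 probe sets of 27168 with 1 gene symbol, 3 for DPP4, 1 for ANPEP, 2 for ENPEP, 3 for MME and 1 for CPM. Small intestines of male chicks (Gallus gallus) were profiled on 28 Affymetrix arrays at 7 ages, 4 arrays an age: embryonic days 18 (e18) and 20 (e20), hatch, and 1, 3, 7 or 14 days later (d1, d3, d7, d14). Per the labels, segments of the gut of 6 birds gave the total RNA of an age, and the tissue label reads whole intestine where the design text names the small intestine. Birds of lines A and B and 2 sample pools are named for the whole study and not for single arrays, and no treatment or allele is given, so the ages are the only groups. Nothing in the labels says which arrays of an age came from separate birds, so p-values measure the spread between these arrays, which may be partly technical.

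Peptidases of the brush border sit on the apical membrane of enterocytes with their active sites in the gut lumen, where they cut the peptides left by pancreatic proteases. The resulting di- and tripeptides and free amino acids are then taken up by carriers of the same membrane, among them the peptide transporter SLC15A1. DPP4 is a serine peptidase that removes dipeptides ending in proline or alanine, and in mammals it also inactivates the incretin hormones. ANPEP (aminopeptidase N) and ENPEP (aminopeptidase A) are related zinc enzymes that remove single residues from the amino end, neutral ones and acidic ones. MME (neprilysin) is a zinc endopeptidase that cuts within peptides, and CPM is a carboxypeptidase held by a lipid anchor that removes basic residues from the carboxyl end.

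Values are log2 of the deposited intensity unless stated otherwise, and the brightest probe set, by its mean over all arrays, stands for a gene. Changes were tested with limma across the 8396 genes that exceeded 4 in at least 4 arrays, with Benjamini-Hochberg adjustment, and a gene is called changed at an adjusted p under 0.05. All 5 genes and 8 of the 10 probe sets were over that limit. Most genes on the array differed with age: the F-test over ages called 90.1% of all genes, and all 5 peptidases were among them. The background level, taken as the 95th percentile of the negative control probe sets, was 2.97 to 3.54 per array, and the highest value on an array was 15.19 to 15.59. The e18 arrays stood apart, with a summed intensity of 10 exocrine pancreas markers of 56709 to 72042 at e18, 174 to 697 at e20 and 274 to 4716 at d14, and 5 of the 10 (CPA1, CPB1, CEL, PLA2G1B and SYCN) at background at e20. Values against e20 are given beside those against e18. In whole tissue, fewer cells of a type and less RNA per cell cannot be told apart.

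DPP4 had the largest change of the 5 at d14 against e18. It had log2 values of 12.38, 12.55, 12.55 and 12.32 on the d14 arrays, against 5.88, 6.10, 4.63 and 5.87 on the e18 arrays. Every d14 array was thus far above every e18 array, and the e18 array at 4.63 lay apart from its 3 fellows. The change was 6.83 ± 0.22 (SE, n = 4 against 4), a 114-fold rise (adjusted p = 8.1e-19, limma), and 99.8% of all genes tested had a smaller value. By e20 it had reached 11.06, 11.25, 10.45 and 11.14, which is 78.4% of its log2 change by d14. Levels were highest at d1, at 12.99, 13.10, 12.97 and 12.92, above every array of the other ages. Against e20 the d14 arrays were higher by 1.48 ± 0.22 (adjusted p = 1.6e-06). The other 2 DPP4 probe sets stayed between 2.27 and 2.48 on all 28 arrays, below the background level of every array, so DPP4 rests on 1 probe set. With these dark probe sets averaged in, the change against e18 came to 2.30 and that against e20 to 0.49, both still called.

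ANPEP rose before hatch and again at d1, and no later step was called. It had log2 values of 13.74, 13.74, 13.56 and 13.69 at d14, against 10.77, 11.18, 11.10 and 11.20 at e18. The groups did not overlap, and the change was 2.62 ± 0.12 (adjusted p = 5.3e-16, limma), a 6.15-fold rise. The e20 arrays, at 12.94, 12.93, 12.36 and 12.50, were all below the d14 arrays, by a mean of 1.00 ± 0.12 (adjusted p = 4.6e-08). From d1 to d14 the 4 age means lay between 13.68 and 13.79, and none of the 3 steps in that span was called. When arrays were centred on 9 general epithelial genes, 8 of which were called higher at d14 than at e20, the difference from e20 shrank to 0.27 and was no longer called (adjusted p = 0.068, limma).

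By its brighter probe set ENPEP rose in 2 steps, before e20 and before hatch. It had 11.63, 11.82, 12.17 and 12.26 at d14, against 7.25, 8.20, 7.49 and 8.29 at e18. All d14 arrays were higher, by 4.16 ± 0.26 (adjusted p = 2.5e-13, limma), a 17.9-fold rise. At e20 it stood at 10.13, 10.25, 9.38 and 9.76, which is 49.8% of its log2 change by d14, and the d14 arrays were 4.25-fold higher than these (2.09 ± 0.26, adjusted p = 1.1e-07). With the mean of both ENPEP probe sets the change against e20 was 3.35. From e18 to e20 that mean changed by 0.61 and was not called, so the share present at e20 is that of the brighter probe set alone. ENPEP was the one member of the 5 with its highest mean at d14, 11.97 ± 0.30 (SD, n = 4), although hatch, at 11.66 ± 0.19, was not called apart from it (adjusted p = 0.32). Its 4 arrays at d7 had 10.98, 10.84, 11.97 and 11.63.

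MME rose before hatch and moved in both directions after d1. It had 12.54, 12.75, 13.06 and 12.92 at d14, against 9.89, 10.45, 9.73 and 9.95 at e18. The groups did not overlap, and the change was 2.81 ± 0.17 (adjusted p = 2.4e-13, limma), a 7.02-fold rise. The e20 arrays were at 12.48, 12.03, 11.85 and 12.26, so 76.5% of the log2 change by d14 was present at e20. The d14 arrays were 1.58-fold above these (0.66 ± 0.17, adjusted p = 0.0016). When arrays were centred on the general epithelial genes, this last difference was -0.07 and was not called (adjusted p = 0.71, limma). With the mean of the 3 MME probe sets it was 1.62 and called, and the change from e18 to e20 was 0.63 (adjusted p = 0.036) in place of 2.15, so the share present at e20 is that of the brightest probe set alone.

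CPM went the other way. It had 9.62, 9.71, 9.55 and 9.41 at d14, against 11.85, 11.94, 11.56 and 11.58 at e18. Every d14 array was below every e18 array, and the change was -2.16 ± 0.14 (adjusted p = 7.2e-13, limma), a 4.47-fold fall. Of all genes tested, 5.45% had a lower value. Against e20, where CPM had 10.54, 10.20, 10.84 and 10.83, every d14 array was lower again, with a change of -1.03 ± 0.14 (adjusted p = 5.7e-07). CPM is known in humans also from macrophages. The summed intensity of 10 macrophage and heterophil markers was 5647 to 12209 at e18, 178 to 292 at e20 and 1065 to 1939 at d14. TIMD4 was at background at e20 and CATH1 at d14. Such a sum is carried by the brightest genes, and the mean log2 of the 10 was 6.52, 4.01 and 6.28 at these ages. Of the 10, 7 were called higher and 2 lower at d14 against e18 (median 2.20), beside 33.2% and 40.5% of all genes. Against e20, 7 were called higher and 0 lower (median 2.72), beside 27.2% and 40.4% of all genes. The part of such cells in the CPM levels was not tested.

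**Figure D1:**
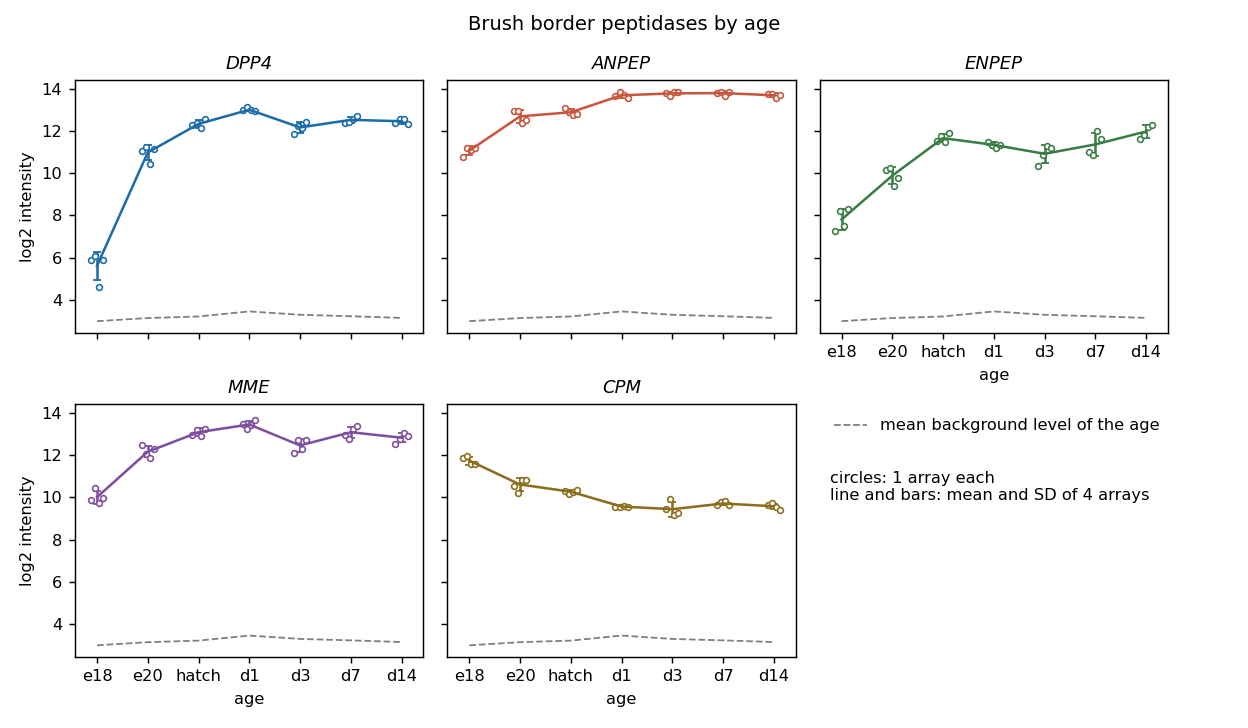
Log2 intensity (vertical axis) of the brightest probe set of each peptidase at the 7 ages (horizontal axis); circles are single arrays, lines and bars are the mean and SD of 4 arrays, and the dashed line is the mean background level. DPP4, ANPEP, ENPEP and MME are higher on all d14 arrays than on all e18 arrays, CPM is lower, and all 5 lie above background on every array.

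At d14 against e18 all 5 members were called, where 73.7% of all genes were, 33.2% as higher and 40.5% as lower. In all 5 the arrays of the 2 ages did not overlap, as in 66.3% of all genes. Against e20 all 5 were called again, beside 67.6% of genes, and again none overlapped, as in 61.2%. Averaged over the 4 ages after hatch and set against the 2 embryonic ages, the change was 4.23 ± 0.13 for DPP4, 1.86 ± 0.07 for ANPEP, 2.55 ± 0.16 for ENPEP, 1.87 ± 0.11 for MME and -1.60 ± 0.09 for CPM, all called, beside 79.4% of all genes. With e18 left out, these came to 1.56 for DPP4, 1.04 for ANPEP, 1.51 for ENPEP, 0.79 for MME and -1.03 for CPM, all called. The median change of all genes at d14 against e18 was -0.07, and the 4 members that rose had larger values than 95.2% to 99.8% of genes. The comparisons share the d14 or the embryonic arrays and are not independent of each other.

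The steps between neighbouring ages showed when the transcript level of each member changed, by its brightest probe set unless stated otherwise. From e18 to e20 all 5 members were called, beside 54.2% of genes: DPP4 changed by 5.36 ± 0.22, MME by 2.15 ± 0.17, ENPEP by 2.08 ± 0.26, ANPEP by 1.62 ± 0.12 and CPM by -1.13 ± 0.14. From e20 to hatch ENPEP rose by 1.77 ± 0.26, DPP4 by 1.35 ± 0.22 and MME by 0.92 ± 0.17. ANPEP, at 0.19 ± 0.12, and CPM, at -0.34 ± 0.14 (adjusted p = 0.052), were not called in this step, in which 43.3% of genes were. CPM was called without e20 array 2, at -0.47. With the mean of both ENPEP probe sets, the step of ENPEP from e18 to e20 was 0.61 and not called. From hatch to d1 ANPEP rose by 0.80 ± 0.12, DPP4 by 0.67 ± 0.22, and CPM fell, at -0.70 ± 0.14, while ENPEP, at -0.32 ± 0.26, and MME, at 0.37 ± 0.17, were not called (35.2% of genes were). The mean of both ENPEP probe sets fell in this step, at -1.25 (adjusted p = 0.0034, limma). For MME the mean of its 3 probe sets was -0.62 and not called, while array weights gave 0.40 and a call (adjusted p = 0.035, limma). The DPP4 call of this step was lost without hatch array 3, at 0.60 (adjusted p = 0.056), and with centring on the general epithelial genes, at 0.32.

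From d1 to d3 DPP4 and MME both fell. DPP4 had 11.84, 12.25, 12.13 and 12.43 at d3, against the d1 values given above, a change of -0.84 ± 0.22 (adjusted p = 0.0057, limma). MME had 12.11, 12.71, 12.30 and 12.70 at d3, against 13.45, 13.24, 13.40 and 13.68 at d1, a change of -0.99 ± 0.17 (adjusted p = 0.00015). In both genes every d3 array was below every d1 array, as in 12% of all genes, while 10.7% were called lower and 25.7% in either direction. With the mean of the 3 MME probe sets the fall of MME was -0.58 and not called. Taken singly, the probe set of middle brightness fell, at -0.80 ± 0.26 (adjusted p = 0.023, limma). The dimmest changed by 0.04 ± 0.40 and was not called. MME recovered by 0.62 ± 0.17 from d3 to d7 (adjusted p = 0.018), the one member called among 13.5% of genes. That call was lost without d3 array 1 or 3 or d7 array 3 or 4, with values of 0.51 to 0.57, and without d3 array 2 CPM was called in this step, at 0.44. From d7 to d14 limma called none of the 5, and 0.858% of all genes. ENPEP alone had an unadjusted p under 0.05 in this step, with a change of 0.61 ± 0.26 (adjusted p = 0.36, limma). Over the longer span, d14 lay below d1 for DPP4 (-0.54 ± 0.22) and MME (-0.63 ± 0.17) and above it for ENPEP (0.63 ± 0.26), all called, beside 46% of genes. These are values of the brightest probe sets. The MME probe set of middle brightness had means of 9.69 at d1 and 9.59 at d14, and the dimmest rose from 7.93 to 9.19. For the dimmer ENPEP probe set the means were 6.10 and 9.07.

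**Figure D2:**
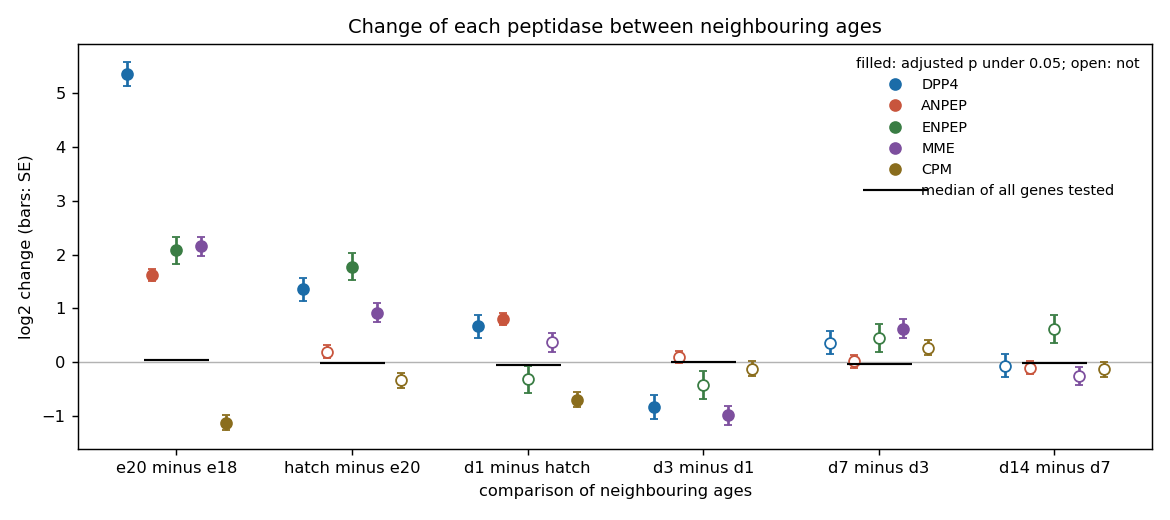
Log2 change (vertical axis, bars are SE) of each peptidase between neighbouring ages (horizontal axis, 4 arrays each); filled circles passed an adjusted p under 0.05 and black bars are the median of all genes tested. The change from e18 to e20 is the largest for DPP4, MME, ENPEP, ANPEP and CPM alike, and no member is filled from d7 to d14.

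Ordered by the level of the brightest probe set, most neighbouring ages of a member were not called apart. For DPP4 the means ran e18 (5.62), e20 (10.98), d3 (12.16), hatch (12.33), d14 (12.45), d7 (12.52) and d1 (13.00), and only the lowest 2 steps in this order were called, that from d7 to d1 having an adjusted p of 0.089 (limma). For ANPEP the lowest steps were e18 (11.06), e20 (12.69) and hatch (12.88), the last 2 of which were not called apart (adjusted p = 0.18, limma), and the step up to d1 (13.68) was called. For ENPEP e18 (7.81) and e20 (9.88) stood below d3 (10.91), and no further neighbours were called apart. For MME e18 (10.01) alone stood below its neighbour, e20 (12.16). Other probe sets of these genes had other orders. The dimmest MME and the dimmer ENPEP probe set had their lowest means at e20 (6.09 and 4.46). The middle and the dimmest MME probe set had their highest means at hatch (10.19 and 9.67). For CPM the order was turned, with d3 (9.44), d1 (9.56), d14 (9.57) and d7 (9.71) not called apart. Hatch (10.26) was called above d7 and e18 (11.73) above e20 (10.60), while e20 and hatch were not called apart. No level of one gene is set against that of another here, since probe sets differ in their response.

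Whether members changed by unequal amounts was tested on their difference within each array, with an exact two-sided permutation test of 4 d14 against 4 e18 arrays over 10 pairs of members. The smallest p that 4 against 4 allows is 0.0286, or 0.0317 after adjustment over the 10 pairs, and 9 pairs reached it. Among these were all pairs of CPM with a member that rose. Their separation was fixed by changes in opposite directions without overlap, so they say nothing on unequal size. The 10 pairs are made of 5 genes and are not independent of each other. DPP4 exceeded ENPEP by 2.67 ± 0.35, MME by 4.02 ± 0.27 and ANPEP by 4.21 ± 0.37 in log2 change. ENPEP exceeded MME by 1.35 ± 0.21, and the difference of ANPEP from ENPEP was -1.54 ± 0.26. ANPEP and MME were the pair not told apart, with a difference of -0.19 ± 0.21 (exact p = 0.4). Against e20 the order changed: ENPEP now gained more than DPP4 (DPP4 minus ENPEP -0.61 ± 0.19, exact p = 0.0286), and ANPEP and MME were again not told apart (0.33 ± 0.20, exact p = 0.171). All these differences are those of the brightest probe set of each gene. Against e20 the brightest MME probe set changed by 0.66 and the others by 1.09 and 3.10. For ENPEP the values were 2.09 and 4.61, beside 1.00 for ANPEP. The order of the genes thus depends on the probe set chosen.

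The probe sets of MME and ENPEP had the same direction at d14 against e18 and differed around hatch. Of the 3 MME probe sets, the brightest stands for the gene in the values above. For d14 against e18 the middle one rose by 2.05 ± 0.26 and the dimmest by 1.89 ± 0.40, both called, as 71.8% of the 12936 probe sets tested were. From e18 to e20, however, the dimmest fell, at -1.21 ± 0.40 (adjusted p = 0.013, limma), where the brightest rose by 2.15 and the middle one by 0.96. Of all probe sets, 29.5% were called lower in this step. The dimmest had 5.30, 5.46, 6.39 and 7.20 at e20, against 7.28, 7.73, 6.70 and 7.51 at e18, so that arrays of the 2 ages overlapped. It then rose by 3.58 ± 0.40 to hatch, at 9.10, 9.63, 9.30 and 10.63, and fell again at d1, to 8.18, 7.94, 7.85 and 7.77 (-1.73 ± 0.40, adjusted p = 0.0015). In these steps 21.6% of probe sets were called higher at hatch and 25.3% lower at d1.

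The dimmer ENPEP probe set had a like shape. It had 8.78, 8.77, 9.35 and 9.36 at d14, against 4.58, 5.95, 4.84 and 5.86 at e18, a change of 3.76 ± 0.41 that was close to the 4.16 of the brighter one. At e20 it was at 4.16, 4.39, 4.26 and 5.03 and at hatch at 7.65, 8.16, 8.05 and 9.26, a rise of 3.82 ± 0.41, where the brighter one gained 1.77. From hatch to d1 it fell, at -2.18 ± 0.41 (adjusted p = 0.00018, limma), where the brighter one was not called. Over the 28 arrays it correlated with the dimmest MME probe set (r = 0.93 as a description across ages, and 0.80 for deviations from the age means). Of all probe sets tested, 8.96% were called higher at hatch than at e20 and lower at d1 than at hatch.

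Control probe sets for the 3′ and 5′ ends of actin, ef1a and gapdh also differed between the ages around hatch. Their mean log2 difference, 3′ minus 5′, is a common gauge of how intact or how fully copied the RNA was, a larger value meaning less signal from the 5′ end. It averaged 0.38 at e18, 1.3 at e20, 0.85 at hatch, 1.81 at d1, 1.08 at d3, 0.87 at d7 and 0.86 at d14. The dimmest MME probe set had means of 7.30, 6.09, 9.67 and 7.93 at e18, e20, hatch and d1, and the dimmer ENPEP probe set had 5.31, 4.46, 8.28 and 6.10. At e20 and d1 the control difference was larger than at hatch, and both probe sets were lower. At e18 the difference was at its smallest, and both probe sets were also lower than at hatch. The brightest MME and ENPEP probe sets had their lowest means at e18 too, at 10.01 and 7.81. It ran from 0.37 to 0.40 over the e18 arrays, 1.01 to 1.57 over the e20 arrays and 1.68 to 1.97 over the d1 arrays, without overlap between these 3 ages. Within e20 the arrays with 1.48 and 1.57 were those with 5.30 and 5.46 for the dimmest MME probe set, and the arrays with 1.15 and 1.01 had 6.39 and 7.20. The d1 arrays had 1.79, 1.68, 1.97 and 1.81, in the order of their values for this probe set given above. There the lowest difference did not go with the highest value.

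With this difference as a covariate beside age, chosen after seeing the data, its slope was estimated from the spread within ages. The slope was called for the dimmest MME probe set (-3.11 ± 0.58 log2 per unit, adjusted p = 0.0024, limma) and the dimmer ENPEP probe set (-2.60 ± 0.70, adjusted p = 0.028), as for 7.11% of probe sets. It was not called for any of the 5 probe sets that stand for the genes (4.53% of genes were called), with -0.34 ± 0.55 for ENPEP, -0.13 ± 0.37 for MME, -0.00018 ± 0.47 for DPP4, -0.31 ± 0.30 for CPM and 0.53 ± 0.23 for ANPEP (adjusted p = 0.15). With the covariate the change of the dimmest MME probe set from hatch to d1 was 1.26 ± 0.62 in place of -1.73, and that of the dimmer ENPEP probe set was 0.31 ± 0.75 in place of -2.18, neither called. From e18 to e20 they came to 1.65 ± 0.60 and 1.55 ± 0.73, not called and of the same sign as the brightest probe sets. In both steps the slope within ages is carried over a gap between ages that is wider than the range on the arrays of any age. The e18 arrays ran only from 0.37 to 0.40 in this difference and the e20 arrays from 1.01 to 1.57. The part of RNA quality in the disagreement of the probe sets was not tested.

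For d14 against e18 with the covariate, DPP4 changed by 6.83 ± 0.31, ENPEP by 4.33 ± 0.37, MME by 2.87 ± 0.25, ANPEP by 2.37 ± 0.15 and CPM by -2.01 ± 0.20, all called. Several smaller steps lost their call. The hatch to d1 steps of DPP4 (0.67 ± 0.50), ANPEP (0.29 ± 0.24) and CPM (-0.40 ± 0.32) were no longer called. Nor was the d1 to d3 fall of DPP4 (-0.84 ± 0.41). That of MME (-1.08 ± 0.32) had an adjusted p of 0.045 in the limma fit of genes and 0.055 in that of probe sets. In the latter fit the middle MME probe set came to -1.66 ± 0.44 (adjusted p = 0.029, limma), in place of -0.80. The dimmest came to -2.23 ± 0.51 (adjusted p = 0.012, limma), in place of 0.04, so its fall is that of the covariate fit alone. Both estimates carry the slope within ages over the gap between the mean 3′ to 5′ difference of d1 (1.81) and d3 (1.08). That gap is wider than the range on the arrays of any age. For DPP4 the changes of both steps were the same without the covariate, and only the SE grew, from 0.22. For ANPEP and CPM the hatch to d1 estimates themselves were smaller than without it (0.80 and -0.70). The covariate itself differed between ages, and most steps had a larger SE with it. Exceptions were ANPEP and CPM from d7 to d14 and ANPEP from d3 to d7. The calls of CPM from e18 to e20 (-0.84, adjusted p = 0.059) and of MME from d3 to d7 (0.60, adjusted p = 0.055) were lost as well, and ANPEP from e20 to hatch was gained (0.43, adjusted p = 0.035).

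**Figure D3:**
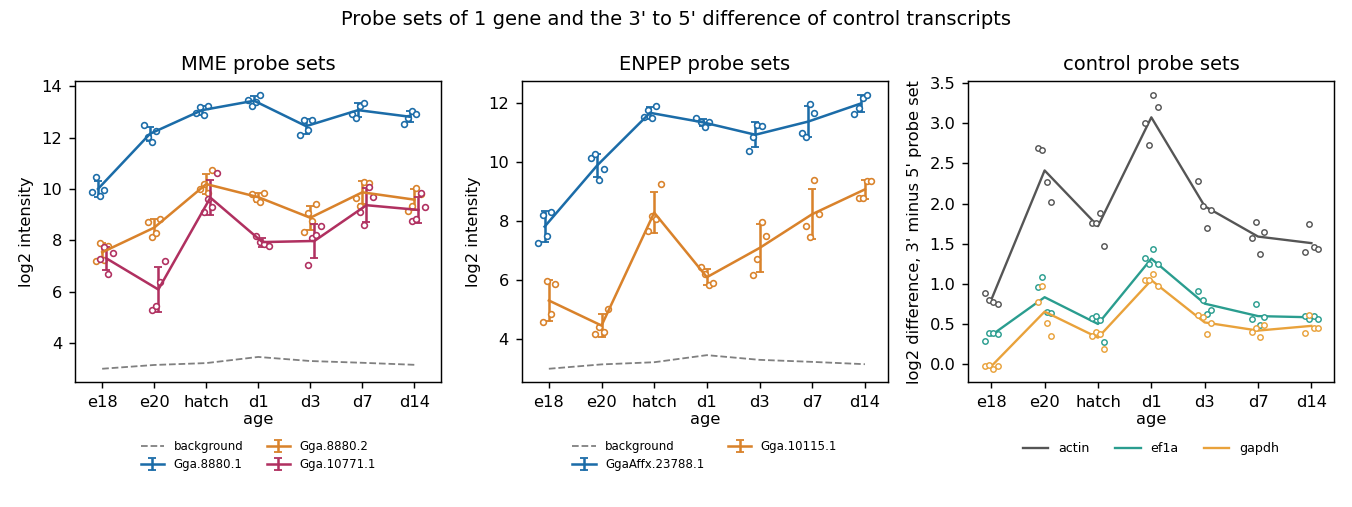
Log2 intensity by age of the 3 MME probe sets (left) and the 2 ENPEP probe sets (middle), with single arrays as circles, mean and SD of 4 arrays as lines and bars and the mean background as a dashed line, and the log2 difference of 3′ and 5′ control probe sets on each array (right, lines are means). The dimmest MME and the dimmer ENPEP probe set have lower means at e20 and d1 than at hatch, and the control differences are largest at d1 and e20.

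Arrays of the same age varied together in some members. Each array's deviation from the mean of its age was compared between members over the 28 arrays, in 10 pairs, with permutation within ages. ENPEP and MME deviated together, with Pearson's r = 0.66 (permutation p = 0.0031, adjusted 0.031) and Spearman's rho = 0.63 (0.024), and 21 of 28 arrays lay on the same side of their age mean in both. The r was 0.62 without the 2 arrays farthest from the median of ENPEP, and 0.65 once the 3′ to 5′ difference was taken out. By rank, MME came 85th among the 8395 other genes in its likeness to ENPEP within ages. The highest r of any gene was 0.87 with ENPEP and 0.88 with MME. As lists, other brush border hydrolases had an r of 0.69 with ENPEP and 0.53 with MME. Proliferation markers had -0.68 and -0.69, so the likeness was not limited to the members. DPP4 went with MME (r = 0.59, rho = 0.59) and ENPEP (r = 0.54, rho = 0.56), both with an adjusted permutation p of 0.046. Among the 8395 other genes, MME came 106th and ENPEP 198th in likeness to DPP4 within ages. The r of ANPEP was 0.19 with DPP4, 0.35 with ENPEP and 0.03 with MME, none past the threshold, and with CPM it was -0.53 (adjusted permutation p = 0.071).

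The spread of ENPEP was shared by its own probe sets, whose deviations correlated at 0.80 over the 28 arrays, a description of values that share the RNA. At d14 the arrays with 12.17 and 12.26 for the brighter ENPEP probe set were those with 9.35 and 9.36 for the other, against 8.78 and 8.77 on the remaining arrays. These were arrays 3 and 4 of the age. At d3 and d7 too, ENPEP lay above its age mean on arrays 3 and 4 and below it on arrays 1 and 2, as MME did at d7 and d14. At e20 and d1 ENPEP had the opposite split, and at e18 and hatch neither. The part of array order in this spread was not tested. Within single ages the r of ENPEP and MME was between 0.06 (d1) and 0.99 (hatch), with 4 arrays each. Since lines and pools are not given per array, their part in this spread was not tested.

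**Figure D4:**
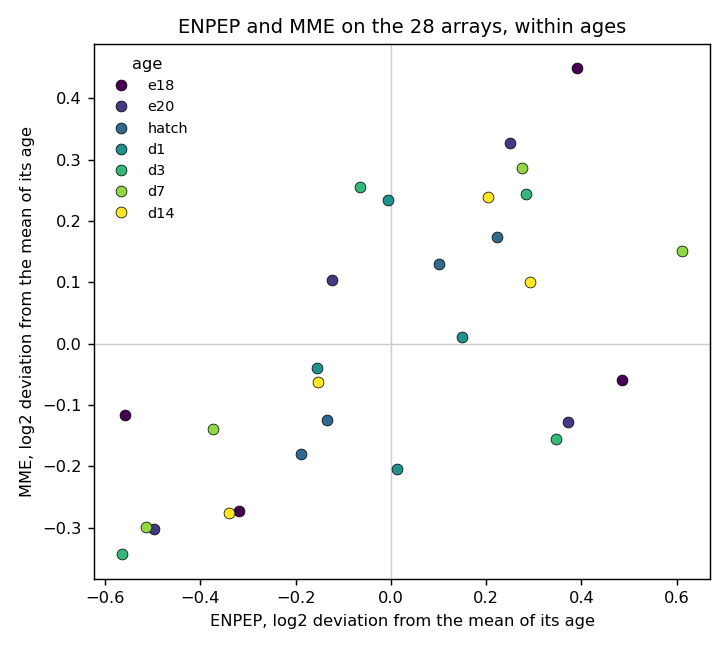
Deviation of each of the 28 arrays from the mean of its age, in log2 units, for ENPEP (horizontal axis) and MME (vertical axis), coloured by age. 21 of the 28 arrays lie in the lower left and upper right of the plot, on the same side of both means, r = 0.66.

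The genes whose values were most like each member over the 28 arrays are given as a description, since all follow the ages. For DPP4 these were RBP2, the retinol-binding protein of enterocytes (r = 0.993), ACSL5, an acyl-CoA synthetase, the antimicrobial peptide gene LEAP2, LPGAT1 and UGT2A1, down to 0.989. For ANPEP they were the microvillar cadherin CDHR2 (0.991), the Golgi mannosidase MAN2A1, SPTBN5, PRELID3A and PTGER4, a prostaglandin receptor. For ENPEP they were the lipoprotein assembly gene MTTP (0.976), PCSK5, the guanylin receptor GUCY2C, MOGAT2 of triglyceride resynthesis and SLC6A19, the main carrier of neutral amino acids. For MME they were CREB3L3 (0.979), CYP4A22, the fatty acid carrier SLC27A2, SORD and SDR16C5. For CPM they were GPR20 (0.977), HMGN2P46, LOC422895, ZNF639 and RBMXL1, all of which fell between e18 and d14, by 1.52 to 5.98 on the log2 scale.

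Most other peptidases of the cell surface that passed the limit on low values rose at d14 against e18. Of 22 further ectopeptidases listed 18 were on the array, and 10 passed the limit. Of these 10, 8 rose and 2 (LVRN and ECE1, also relatives of members) fell. Their median was 1.61, beside -0.07 for all genes, of which 33.2% were called higher and 40.5% lower. A gene can pass the limit through only the ages where it is high. Without the limit 9 of the 18 rose, 2 fell and 7 were not called, with a median of 0.20. Of all 13009 genes 3473 were then called higher and 3892 lower, with a median of 0.02. TMPRSS15, the enteropeptidase that activates trypsinogen, had a mean of 2.87 at e18. That is below the mean background of the age (3.00), though not every e18 array was at background. It reached 7.38 at d14, at least 20.9-fold higher (adjusted p = 6.9e-11, limma), with its highest mean at d1 (10.46). Against e20 (7.54) its change was -0.16 ± 0.37 and not called. The angiotensin-converting enzyme ACE rose by 3.39 ± 0.21, the dipeptidase DPEP1 by 3.42 ± 0.13 and the meprin subunit MEP1A by 2.89 ± 0.28. The folate-hydrolysing FOLH1 rose by 0.65 against e18, and against e20 it fell, at -0.75 (adjusted p = 0.0002). Against e20 the counts were 6 higher and 2 lower, with a median of 0.61, beside 27.2% and 40.4% of all genes. Without the limit they were again 6 and 2, with 10 not called and a median of 0.02.

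Relatives of the members did not move as one. Of 29 listed 25 were on the array and 13 passed the limit. All 13 were called at d14 against e18, beside 73.7% of all genes. Of the 13, 8 were higher and 5 lower, with a median of 0.51. Without the limit 9 of the 25 were called higher, 8 lower and 8 not, with a median of 0.03. Of all 13009 genes 3473 were then called higher and 3892 lower. Near DPP4 in family, the cytosolic DPP8 rose by 1.12 ± 0.17, DPP9 by 1.14 ± 0.17 and APEH by 0.53 ± 0.10, while prolyl endopeptidase PREP fell, at -0.51 ± 0.12. Among relatives of ANPEP and ENPEP, ERAP1, the trimming aminopeptidase of the endoplasmic reticulum, rose by 2.72 ± 0.23, LTA4H by 0.62 ± 0.14, RNPEP by 0.51 ± 0.11 and NPEPPS by 0.38 ± 0.14. AOPEP fell, at -1.27 ± 0.11, and LVRN, not above background at d14, was at least 4.37-fold lower, with means of 5.28 at e18 and 2.71 to 2.94 from e20 on. Of the carboxypeptidases CPD rose by 0.96 ± 0.11, and CPZ, not above background at d14, was at least 5.3-fold lower. ECE1, of the family of MME, changed by -0.36 ± 0.16 (adjusted p = 0.045, limma). Against e20, 8 of the 13 were called, 3 higher and 5 lower, beside 27.2% of all genes called higher and 40.4% lower. RNPEP and NPEPPS then lay lower at d14, at -1.17 and -1.29.

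Of the peptidases inside the cell, which split absorbed small peptides, 24 were over the limit. Of these, from 29 listed, 15 rose and 5 fell at d14 against e18, with a median of 0.52, beside 33.2% and 40.5% of all genes. The prolidase PEPD rose by 3.19 ± 0.14, the dipeptidase CNDP2 by 1.73 ± 0.14 and the aminoacylase ACY1 by 1.47 ± 0.11. Against e20 the counts were 6 higher and 11 lower, with a median of -0.15, near the shares of all genes (27.2% and 40.4%) and their median of -0.13.

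Carriers of the products rose. Of 10 carriers of peptides and amino acids over the limit 9 rose and 1 fell at d14 against e18, with a median of 2.97. Of all genes 33.2% were called higher and 40.5% lower between these ages. SLC6A19 rose by 5.33 ± 0.28, the peptide transporter SLC15A1 by 4.09 ± 0.19, the proton-coupled carrier SLC36A1 by 3.62 ± 0.23 and SLC43A2 by 3.13 ± 0.22. SLC15A1 had means of 10.18 at e18, 12.27 at e20, 13.23 at hatch and 14.25 to 14.34 at d1, d7 and d14, with 14.06 at d3. Of 7 other hydrolases of the brush border 6 rose and 1 fell, with MGAM at 6.54 ± 0.18, LCT at 5.97 ± 0.30, ENPP3 at 5.43 ± 0.23 and ENPP7 at 4.55 ± 0.31. Of 17 genes of microvillus structure 14 rose and 2 fell, with CDHR2 at 6.14 ± 0.22, PLS1 at 3.96 ± 0.13, MYO7B at 3.15 ± 0.25 and RAB8A at -3.91 ± 0.16. Of 11 intestinal transcription factors 8 rose and 2 fell, among them ELF3 at 2.58 ± 0.18, GATA5 at 2.32 ± 0.12, CDX1 at 2.05 ± 0.14 and KLF5 at -2.57 ± 0.18. All these counts are of genes over the limit. Without it 9 of 12 carriers were called higher and 1 lower (median 2.86), and 6 of 8 hydrolases higher and 1 lower (3.57). Of 18 microvillus genes 14 were then higher and 2 lower (1.73), and of 15 transcription factors 8 and 2 (0.40). Of all 13009 genes 3473 were then called higher and 3892 lower, with a median of 0.02. Against e20, among genes over the limit, 8 carriers were called higher and 1 lower (median 1.49), and 6 hydrolases higher and 0 lower (1.39). Of the microvillus genes 15 were then higher and 2 lower (0.81), and of the transcription factors 5 were higher and 2 lower (0.24). Of all genes 27.2% were called higher and 40.4% lower against e20, with a median of -0.13.

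**Figure D5:**
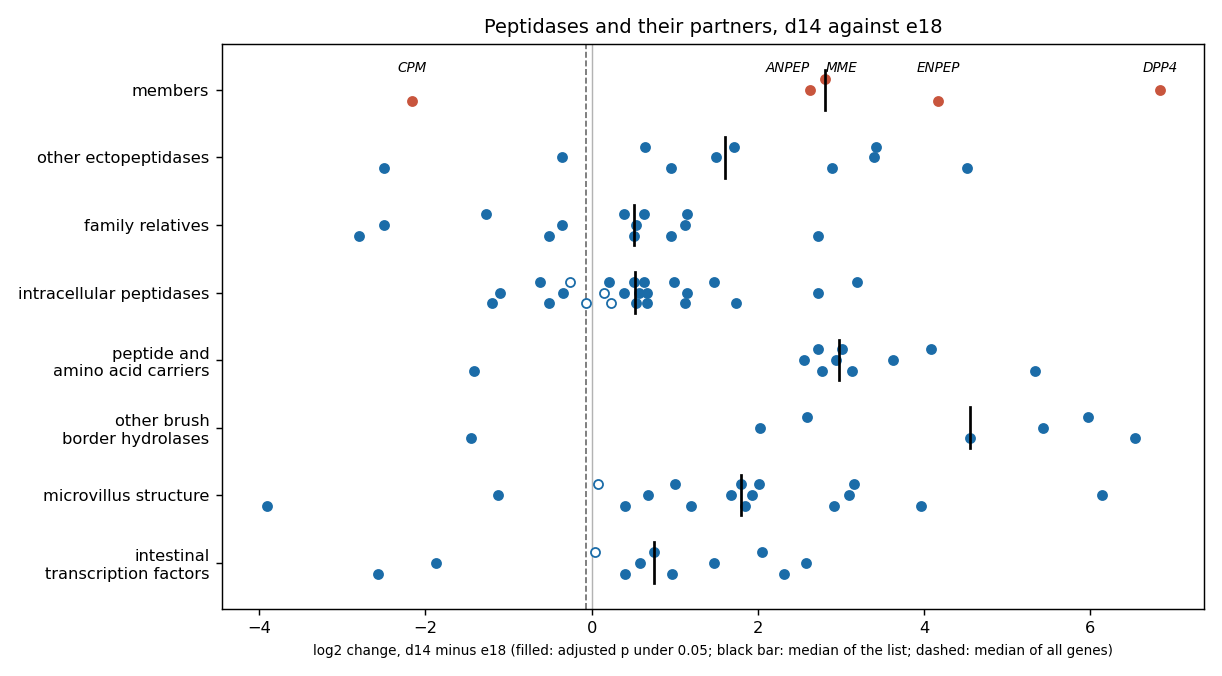
Log2 change at d14 against e18 (horizontal axis) of the 5 peptidases and of the genes over the limit in 7 lists (vertical axis); each circle is 1 gene, filled where the adjusted p was under 0.05, black bars are list medians and the dashed line is the median of all genes. The carriers (median 2.97) and other brush border hydrolases (6 of 7 higher) lie largely to the right, and relatives of the members (8 higher, 5 lower) on both sides.

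Genes for peptides that these enzymes can cut were mixed. Of 11 gut peptide genes over the limit 3 rose and 4 fell at d14 against e18, with a median of -0.40. The 3 that rose were CCK, by 2.71 ± 0.24, NTS, by 0.98 ± 0.18, and GIP, by 0.88 ± 0.17. Of the 4 that fell only VIP is named here, at -1.45 ± 0.18. Of all genes 33.2% were called higher and 40.5% lower between these ages. Against e20, 1 of the 11 was called higher and 5 lower, with a median of -0.50, beside 27.2% and 40.4% of all genes. Of the listed genes of the angiotensin system 3 were over the limit, ACE, ATP6AP2 (0.46 ± 0.08) and the receptor AGTR2 (-2.33 ± 0.28), none of which encodes such a peptide. Markers of other cells also moved between the same ages, and their part in the peptidase levels was not tested: at d14 against e18 all 15 fibroblast and matrix markers and all 13 proliferation markers over the limit fell, with medians of -2.53 and -1.54, 8 of 9 general epithelial markers rose, with a median of 1.07, and 5 of 6 T cell markers rose, with a median of 3.11. Against e20, 14 fibroblast and matrix and 13 proliferation markers were called lower, and 8 general epithelial and 5 T cell markers higher.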

How the data were processed

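The data are 28 Affymetrix arrays of chick small intestine. The deposited values are linear intensities, 1 for each probe set of an array, that the authors made with GCRMA, per the submitters' processing notes. Its version is not given in the sources used here. Of 38535 probe sets 27168 carried 1 gene symbol in the platform annotation and were used.

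Intensities were taken as log2 with no further scaling. The brightest probe set by mean stood for a gene, and 8396 of 13009 genes exceeded 4 in at least 4 arrays. One mean per age was fitted with limma 3.58.1 (lmFit, contrasts, eBayes) in R 4.3.3 with Benjamini-Hochberg adjustment within each comparison, or over 12936 probe sets in the fit of probe sets. The fit was tested on simulated data. Background was the 95th percentile of 541 negative control probe sets per array; a fold against a gene not above it is a lower bound. Permutation tests used scipy 1.17.1, exact over 70 splits for pairs of members and 100000 permutations within ages for deviations. Arrays limit the precision by their number, 4 per age.

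Line and pool are not given per array and were in no fit. The labels give the numbers of arrays within an age no meaning beyond naming them. No pair of arrays was identical. The members and the gene lists were chosen with earlier results of these data known. The genes named are every probe set of the members, up to 4 called genes of a list with the largest change at d14 against e18, all called relatives, and the 5 genes most correlated with each member; FOLH1, GIP and the marker genes at background were named after their values were seen. The 3′ to 5′ covariate and the deviations from age means were added after seeing the data. No sequence of the members is shown, and the intended description of proteins and promoters was not made, since no sequences were used here.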

Additional observations from a re-analysis of the deposited data

Results flagged for a closer look

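In 1 of 56 groups of 4 arrays (7 ages of 8 member probe sets over the limit) an array lay farther from its nearest fellow than Dixon's 95% limit for 4 values allows. DPP4 stood at 4.63 on e18 array 3, against 5.87 to 6.10 on the other e18 arrays. Chance gives about 1 in 20 such groups. Without this array the change of DPP4 at d14 against e18 was 6.5, the lowest of its values with 1 array left out, which ran to 6.99.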

How the results depend on the processing

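At d14 against e18 and for the ages after hatch against those before, all 5 members kept their direction and call under every alternative run: no filter or one at 5, the mean of all probe sets, quantile normalization, centring on the median of genes over 6 or on the general epithelial genes, values floored at background, a trended and robust prior, array weights, the 3′ to 5′ covariate and leaving out each array. DPP4 at d14 against e18 was 2.30 with the mean of all its probe sets, 2 of which were dark, and 5.73 to 6.89 under the other settings that kept all arrays. Leaving out e18 took its change after hatch to 1.56, against 4.23, and kept every member's call. Centring on the epithelial genes moved the median of all genes at d14 against e18 to -1.18 and the calls to 946 higher and 6621 lower, against 2788 and 3401, and it ended the call of ANPEP at d14 against e20 (0.27) and turned MME to -0.068. It gave 1.51 for ANPEP, 1.71 for MME and -3.27 for CPM at d14 against e18, 1.36 for ENPEP and -1.76 for CPM at d14 against e20, and -0.10 for ANPEP from d1 to d3. The mean of all probe sets reversed ENPEP from d1 to d3 (0.28) and MME from hatch to d1 (-0.62), and the covariate gave 0.0065 for ENPEP from hatch to d1. ANPEP from d3 to d7 lay between -0.029 and 0.055 when single arrays were left out. With d14 set against e20 in place of e18, DPP4 minus ENPEP was -0.61, ANPEP minus MME was 0.33, and 8 in place of 13 relatives were called. Without the filter, 5470 genes were called higher and 4303 lower after hatch, against 2867 and 3802. The causes were not tested. No paired analysis was possible because the labels give the arrays no shared replicate numbers. Precision is limited by 4 arrays per age, and a probe set at background has no measured level.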
